A study of Mus musculus with 12 samples.

Results

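DNA methylation genes were read out in bone marrow progenitors of mice carrying a truncated Asxl1 transgene, a heterozygous Kdm6b deletion, both or neither. The genes are Dnmt1, Dnmt3a, Uhrf1, Tet1, Tet2, Tet3, Idh1 and Idh2, 8 genes taken by name as regulators that are often mutated together with ASXL1 in clonal hematopoiesis or that work beside them. All 8 have a row among the 55291 genes of the count matrix, and all 8 passed the filter on low counts that left 15825 genes for testing.

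The samples were Lin-cKit+ (LK) cells, a progenitor-rich fraction that was enriched from bone marrow on magnetic beads by removing lineage-positive cells and keeping cells with cKit. RNA came from individual C57BL/6 mice of 12 months, 3 each of WT, Kdm6bΔ/+, Asxl1Y588XTg and Asxl1Y588XTg Kdm6bΔ/+, the last of which is called the double mutant below. Asxl1Y588XTg mice express a truncated ASXL1 from a transgene and were taken before leukemia, and the promoter of the transgene is not given in the sources used here. Kdm6bΔ/+ cells lost 1 allele of Kdm6b, an H3K27me3 demethylase, through Mx1Cre, which pI:pC induces in blood cells and in other interferon-responsive cells. Whether WT and Asxl1Y588XTg mice also carried Mx1Cre or received pI:pC was not stated for these libraries.

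As background, DNMT3A places new methyl groups on cytosines of CpG sites, DNMT1 copies the pattern to the new strand at replication, and UHRF1 brings DNMT1 to hemimethylated sites. The 3 TET enzymes oxidize 5-methylcytosine and so start its removal, for which they need 2-oxoglutarate. IDH1 in the cytosol and IDH2 in mitochondria make 2-oxoglutarate, and mutant forms of either make 2-hydroxyglutarate, which inhibits TET enzymes. DNMT3A and TET2 are among the genes most often mutated in clonal hematopoiesis, and loss of either in mice changes the balance between self-renewal and differentiation of hematopoietic stem cells.

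The 12 libraries held 14451522 to 23482563 counts each. Mitochondrial genes took 0.523% to 0.788% of counts, and the 10 most abundant genes of each library took 9.94% to 13.3%. Kdm6b itself had normalized counts, which are counts scaled to a common library size, of 2142, 2372 and 1869 in WT and of 1622, 1529 and 1346 in Kdm6bΔ/+, with no overlap. It stood at 2270, 2303 and 2187 in Asxl1Y588XTg and at 1649, 1873 and 1909 in the double mutant. The differences were -0.51 ± 0.11 (log2 fold change ± SE, adjusted p = 0.279 in edgeR) between Kdm6bΔ/+ and WT and -0.30 ± 0.07 (adjusted p = 0.0717) between the double mutant and Asxl1Y588XTg. Reads over exons outside the deleted part count toward this gene. Transcripts of Y-linked genes were present in 0 of 3 WT, 2 of 3 Kdm6bΔ/+, 1 of 3 Asxl1Y588XTg and 3 of 3 double mutant libraries, so this status and the genotype cannot be told apart in the comparison of the double mutant with WT. The LK gate was checked on 7 stem and progenitor markers (Kit, Cd34, Myb, Flt3, Gata2, Spi1 and Runx1), all of which were detected, with summed normalized counts of 25314 to 28702 in every library. Within this sum Gata2 was higher in Asxl1Y588XTg than in WT (0.73 ± 0.13, adjusted p = 0.0276 in edgeR). It was lower in the double mutant than in Asxl1Y588XTg (-1.02 ± 0.12, adjusted p = 0.00686). Sums of 10 neutrophil markers were 1109230 to 1562190, so transcripts of the neutrophil lineage were abundant in this fraction too.

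Measured per kilobase of merged exon, the genes covered a wide span of levels. Dnmt1 had the highest level at 91.3 ± 4.76 CPM per kb (mean ± SD over 12 libraries, CPM being the count scaled to a fixed library size and shown on a linear scale), followed by Uhrf1 at 70.4 ± 3.77, Idh2 at 62.6 ± 5.22 and Idh1 at 41.4 ± 4.91. Tet3 stood at 11.3 ± 1.01 CPM per kb. Dnmt3a at 5.12 ± 0.357 and Tet2 at 5.04 ± 0.479 CPM per kb lay within their spread of each other, and Tet1 was the lowest of the 8 at 2.13 ± 0.182. Of the de novo partners that are not among the 8, the methyltransferase Dnmt3b stood at 4.95 ± 0.613 CPM per kb and Dnmt3l, its catalytically inactive cofactor, at 0.599 ± 0.150. Uhrf1 and Idh2 overlapped between libraries, and with the length of the longest transcript in place of merged exons Idh2 (90.5 CPM per kb) passed Uhrf1 (83.6) and Tet2 (9.26) passed Dnmt3a (8.80).

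**Figure D1:**
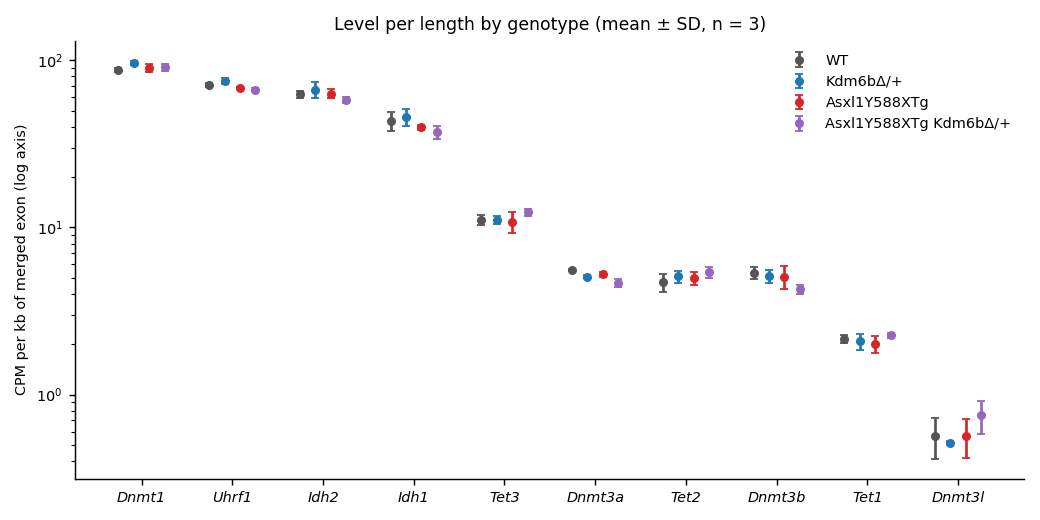
Level of each gene in CPM per kb of merged exon on a log axis, with points for the mean and bars for the SD of 3 mice in each of the 4 genotypes. Dnmt1 and Uhrf1 lead at 91.3 and 70.4 CPM per kb over all libraries, and Dnmt3a, Tet2 and Dnmt3b sit together near 5.

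Shares within a family do not depend on library size. Tet3 made up 61.2% of the summed per-length level of the 3 Tet genes (57.6% to 63.4% over 12 libraries), Tet2 27.2% (24.8% to 29.8%) and Tet1 11.5% (9.96% to 12.6%), and none of these shares differed between the genotypes in an exact permutation test over the 15400 ways to divide 12 libraries into 4 sets of 3 (p = 0.749, 0.357 and 0.713). Idh2 made up 60.2% of the sum of Idh1 and Idh2 (exact permutation p = 0.663). With the length of the longest transcript, the share of Tet1 was 7.94%, that of Tet2 32.0% and that of Tet3 60.0%.

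Dnmt3a took 5.94% ± 0.099 (SD, n = 3) of the per-length sum of Dnmt1 and Dnmt3a in WT, 5.52% ± 0.160 in Asxl1Y588XTg, 4.98% ± 0.053 in Kdm6bΔ/+ and 4.88% ± 0.379 in the double mutant. This share differed between the genotypes (exact permutation test, two-sided, p = 0.000714, not adjusted for the 5 shares tested). Its means fell in the order in which libraries with Y-linked transcripts became more frequent, a status that the test does not include. WT libraries lay at 5.82% to 6.01%, above the other 9.

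Dnmt1, the maintenance methyltransferase (chr9:20907209-20959888, minus strand, GRCm38, the build of the count files), had normalized counts of 11347, 11135 and 11687 in WT and of 12682, 12139 and 12832 in Kdm6bΔ/+. It stood at 10976, 11662 and 12288 in Asxl1Y588XTg and at 11152, 12195 and 12134 in the double mutant. The Kdm6bΔ/+ libraries lay above all WT libraries and overlapped with the double mutant libraries, and the difference from WT was 0.14 ± 0.08 (log2 fold change ± SE, adjusted p = 0.9999). From its lowest to its highest library Dnmt1 spanned a factor of 1.17, and 2.26% of the tested genes had a ratio as low or lower. Dnmt1 stood at percentile 99.2 of the tested genes by mean count, and its ratio was not compared with genes of like count.

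Uhrf1, the recruiter of DNMT1 (chr17:56303321-56323486, plus strand), had normalized counts of 5208, 5252 and 5520 in WT and of 5856, 5666 and 5408 in Kdm6bΔ/+. It stood at 5086, 5115 and 5189 in Asxl1Y588XTg and at 4948, 5129 and 4948 in the double mutant. The 6 libraries with the transgene lay below the 6 without it, a split that was looked at after the values had been seen and that held for 0.442% of all tested genes. That share counts this direction only. The gap was narrow, from 5189 in Asxl1Y588XTg to 5208 in WT. The genotypes differed in the exact permutation test (p = 0.00701), and their order by mean was Kdm6bΔ/+, WT, Asxl1Y588XTg and double mutant, with overlap between the first and the second and between the third and the last.

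Promoter windows of the RefSeq annotation (GRCm38.p6, 250 bases before to 50 after a start) were found for all 8 genes, 14 windows in all. They were searched on both strands for the E2F words TTTCCCGC, TTTCGCGC, TTTGCCGC and TTTGGCGC, since E2F factors drive genes of S phase. A word was present in 1 of 3 windows of Dnmt1 and in 1 of 2 windows of Uhrf1, and in none of the windows of the other 6 genes, while 2.26% of all 32851 windows held a word. Among the DNA replication genes used as a comparison below, 11 of the 24 with a window had a word in it. A match is a run of letters and no evidence of binding. The Dnmt1 window at chr9:20952574-20952873 and the Uhrf1 window at chr17:56304063-56304362 are shown 5′ to 3′ on the strand of the gene, with the matched words in capitals.
Dnmt1: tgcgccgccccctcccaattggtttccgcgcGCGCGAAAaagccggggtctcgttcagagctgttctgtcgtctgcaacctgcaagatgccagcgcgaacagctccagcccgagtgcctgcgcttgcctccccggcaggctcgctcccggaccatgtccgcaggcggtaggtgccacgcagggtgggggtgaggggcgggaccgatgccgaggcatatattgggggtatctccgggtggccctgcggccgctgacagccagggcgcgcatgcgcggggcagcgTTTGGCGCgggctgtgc
Uhrf1: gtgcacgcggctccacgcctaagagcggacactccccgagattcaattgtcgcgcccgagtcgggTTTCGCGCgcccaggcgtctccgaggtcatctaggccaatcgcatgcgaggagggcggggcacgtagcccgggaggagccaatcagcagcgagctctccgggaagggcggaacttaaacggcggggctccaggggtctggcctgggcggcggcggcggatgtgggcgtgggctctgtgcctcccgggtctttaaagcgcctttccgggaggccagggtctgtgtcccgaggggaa

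Dnmt3a, the de novo methyltransferase (chr12:3806007-3914443, plus strand), gave the most ordered pattern. Its normalized counts were 1636, 1597 and 1630 in WT, 1465, 1570 and 1562 in Asxl1Y588XTg, 1498, 1452 and 1500 in Kdm6bΔ/+ and 1391, 1426 and 1285 in the double mutant. All WT libraries lay above the other 9 and all double mutant libraries lay below the other 9, while the single mutants overlapped between them. The genotypes differed in the exact permutation test (p = 0.00039, not adjusted for the 8 genes, where the smallest p the design allows is 6.494e-05). An exact p as low or lower was found for 0.474% of all tested genes. The means fell in the order WT (1621), Asxl1Y588XTg (1532), Kdm6bΔ/+ (1483) and double mutant (1367). The share of libraries with Y-linked transcripts, given above, rose in the same order. The exact test does not include this status and cannot tell it from genotype. The library without these transcripts was the lowest in Kdm6bΔ/+ (1452), and the library with them was the highest in Asxl1Y588XTg (1570). With Dnmt3a and Uhrf1, 2 of the 8 genes had an exact p below 0.05, against 13.2% of all tested genes.

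Double mutant libraries below the other 9 were found for 1.12% of tested genes. The order with WT at one end and the double mutant at the other, which was looked for after the Dnmt3a values had been seen, held for 3 genes (0.019%), namely Dnmt3a, A630089N07Rik and, in the opposite direction, Gm11960. An antisense gene, Dnmt3aos, shares 133 bases of exon with Dnmt3a and had 19 counts over all libraries against 17991 for Dnmt3a.

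**Figure D2:**
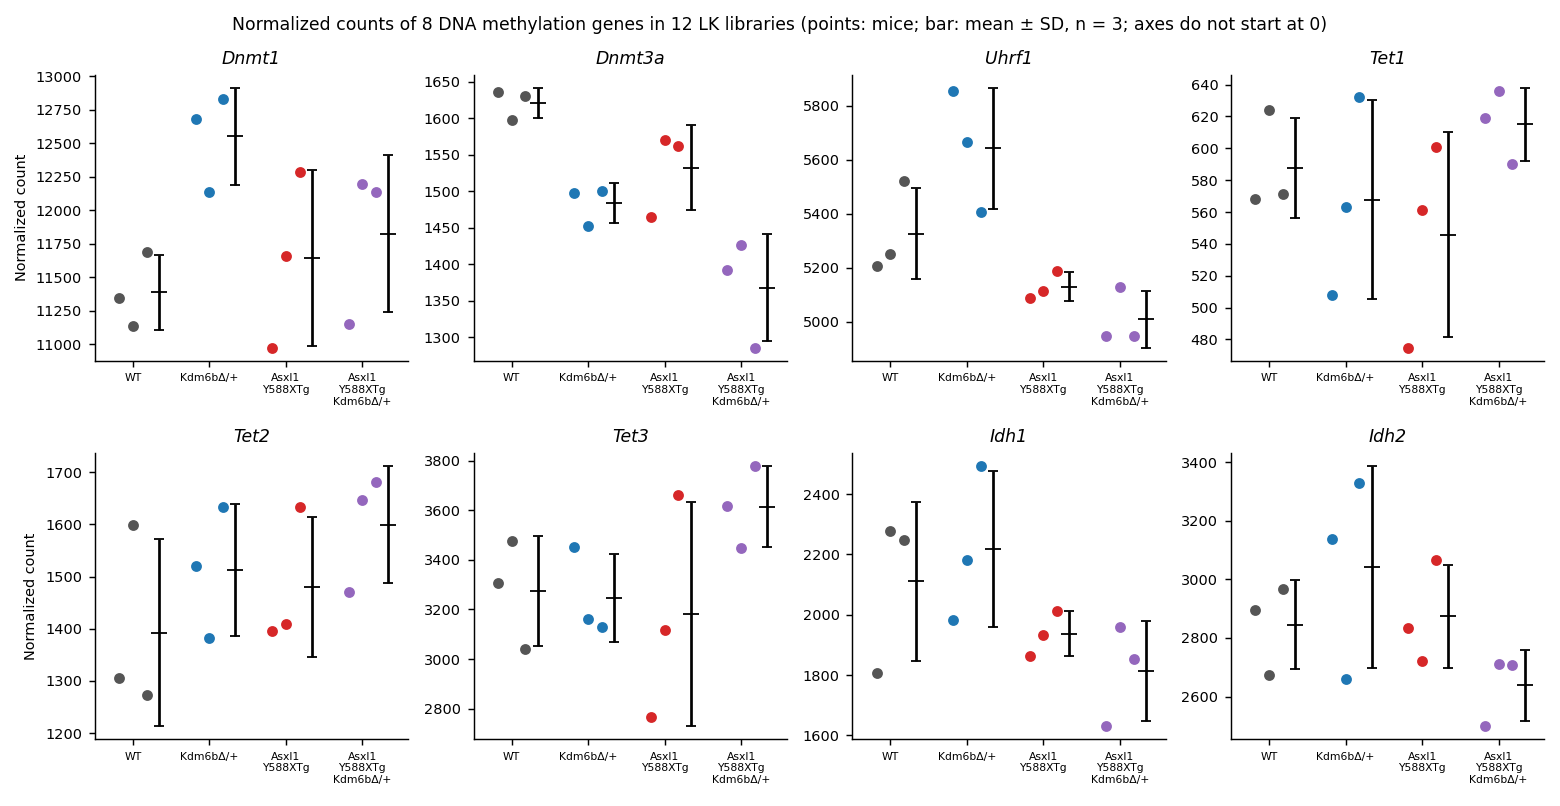
Normalized count of each of the 8 genes (vertical axis, which does not start at 0) in the 12 libraries, with 1 point per mouse and a bar for the mean ± SD of 3 mice in each genotype. Dnmt3a runs from 1597 to 1636 in WT down to 1285 to 1426 in the double mutant, and the Tet and Idh genes overlap between most genotypes.

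Tet2, the TET enzyme best known from myeloid malignancy (chr3:133463679-133545139, minus strand), ranged from 1273 to 1598 normalized counts in WT, from 1383 to 1634 in Kdm6bΔ/+, from 1395 to 1634 in Asxl1Y588XTg and from 1471 to 1682 in the double mutant. All 4 genotypes overlapped (exact permutation p = 0.374). Tet1 (chr10:62804570-62908996, minus strand) ranged from 568 to 624 in WT, from 508 to 632 in Kdm6bΔ/+, from 475 to 601 in Asxl1Y588XTg and from 590.1 to 636 in the double mutant (exact permutation p = 0.401).

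Tet3, the most abundant Tet transcript (chr6:83362373-83459084, minus strand), had normalized counts of 3306, 3476 and 3039 in WT and of 3451, 3160 and 3128 in Kdm6bΔ/+. It stood at 2767, 3116 and 3663 in Asxl1Y588XTg and at 3618, 3449 and 3777 in the double mutant. The double mutant had the highest mean of all 3 Tet genes, and its libraries overlapped with those of other genotypes for each of them (Tet3, exact permutation p = 0.308). The Asxl1Y588XTg libraries of Tet3 were the most spread of any of the 8 genes in any genotype, with a coefficient of variation of 14.2%.

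Idh1 (chr1:65158616-65186500, minus strand) had normalized counts of 1808, 2279 and 2248 in WT and of 1982, 2180 and 2494 in Kdm6bΔ/+. It stood at 1863, 1934 and 2014 in Asxl1Y588XTg and at 1631, 1958 and 1852 in the double mutant. The double mutant libraries lay below all Kdm6bΔ/+ libraries, and the 4 genotypes did not differ in the exact permutation test (p = 0.151). Idh2 (chr7:80094846-80115392, minus strand) ranged from 2674 to 2966 in WT, from 2659 to 3330 in Kdm6bΔ/+, from 2722 to 3067 in Asxl1Y588XTg and from 2499 to 2710 in the double mutant (exact permutation p = 0.230).

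The first comparison asks whether the truncated Asxl1 transgene shifts these genes. In Asxl1Y588XTg against WT, none of the 8 passed an adjusted p of 0.05 with a fold above 1.5, against 1.61% of all tested genes, and none had an unadjusted p below 0.05, against 9.35%. The genotypes did not overlap for Dnmt3a and Uhrf1, which was so for 15.7% of all genes. The log2 fold changes were -0.08 ± 0.07 (SE) for Dnmt3a and -0.06 ± 0.07 for Uhrf1, and those of the 8 genes ran from -0.13 for Idh1 to 0.09 for Tet2. Both ends moved with single mice, Idh1 to -0.23 without the first WT mouse, where 1 gene had an unadjusted p below 0.05, and Tet2 to 0.20 without the second WT mouse and to 0.01 without the third Asxl1Y588XTg mouse. In the same libraries all 9 stem cell marker genes were called higher with a median of 1.99 (log2), their summed level being 3896 to 4811 in Asxl1Y588XTg and 1351 to 1791 in WT. These 9 genes were listed with earlier results of these data known, so their count is a description and no test. Of the 7 stem and progenitor markers named above, 1 was called higher, with a median of 0.0015. In such a mixed fraction a change in the share of a cell type and a change of RNA per cell cannot be told apart, and the part of the marker shift in the values of the 8 genes was not tested.

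In Kdm6bΔ/+ against WT, 0 of the 8 genes were called against 0.0948% of all genes, and 0 had an unadjusted p below 0.05 against 3.49%. Dnmt1 and Dnmt3a did not overlap between these genotypes, against 8.93% of all genes, and they differed in direction, with log2 fold changes of 0.14 ± 0.08 for Dnmt1 and -0.13 ± 0.08 for Dnmt3a. Without the second WT mouse, Tet2 went from 0.12 to 0.23 and had an unadjusted p below 0.05.

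The double mutant addresses what a reduced Kdm6b dose does in cells with the transgene. Against Asxl1Y588XTg, 0 of the 8 genes were called against 1.74% of all genes. Dnmt3a alone had an unadjusted p below 0.05 (log2 fold change -0.15 ± 0.07, adjusted p = 0.315), against 15.4% of all genes, and Dnmt3a and Idh2 did not overlap, against 21.2%. The Tet genes all had positive values, at 0.19 ± 0.10 for Tet1, 0.13 ± 0.09 for Tet2 and 0.20 ± 0.10 for Tet3, and none of the 3 passed the test (adjusted p = 0.397, adjusted p = 0.517 and adjusted p = 0.373). These values depended on single Asxl1Y588XTg mice. Without the third they were 0.27, 0.21 and 0.32, each with an unadjusted p below 0.05, and without the first they were 0.10, 0.09 and 0.11. Over single mice left out, the number of the 8 genes with such a p was 0 to 3. The 9 stem cell markers had a median of -1.39 in this comparison, with 6 of them called lower. The 7 stem and progenitor markers had a median of -0.10, with 1 of them called lower.

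Against Kdm6bΔ/+, the double mutant had 0 of the 8 genes called (0.0948% of all genes), and 4 with an unadjusted p below 0.05, against 12.2%. Idh1 had the largest difference of any of the 8 genes in any pair (log2 fold change -0.29 ± 0.10, adjusted p = 0.272). Idh2 stood at -0.20 ± 0.09 (adjusted p = 0.371), Uhrf1 at -0.17 ± 0.07 (adjusted p = 0.335) and Tet3 at 0.16 ± 0.07 (adjusted p = 0.397). Thus 3 of the 8 had such a p in the lower direction, against 5.67% of all genes. With single mice left out the count of 4 was 1 to 3, the 1 arising without the third Kdm6bΔ/+ mouse, where Idh1 stood at -0.20 and Idh2 at -0.13. Markers of other cells differed in this comparison too. Of the 5 tested megakaryocyte markers all 5 were higher at an unadjusted p below 0.05, 1 of them called, with a median of 1.44 and summed levels of 2832 to 4338 in the double mutant and 1478 to 1807 in Kdm6bΔ/+, and of the 9 stem cell markers 6 were higher at such a p with a median of 0.86. Of all 15825 tested genes 1035 were higher at such a p. Of the 10 neutrophil markers 2 were higher and 2 lower. Also higher were 1 of 8 B cell and 1 of 6 stromal and endothelial markers. Lower were 1 of 7 stem and progenitor and 1 of 7 T and NK cell markers. The part of these markers in the values of the 8 genes was not tested. Dnmt3a, Idh1 and Uhrf1 did not overlap, against 18.9% of all genes.

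Against WT, the double mutant had 0 of the 8 genes called (0.215% of all genes). Dnmt3a had an unadjusted p below 0.05 (log2 fold change -0.23 ± 0.08, adjusted p = 0.546), against 6.79% of all genes. Without the third double mutant mouse this difference was -0.19, and its unadjusted p was no longer below 0.05. Dnmt3a and Uhrf1 did not overlap, against 13.5%. Tet2 stood at 0.21 ± 0.10 (adjusted p = 0.763), and at 0.33 without the second WT mouse, where 3 of the 8 genes had an unadjusted p below 0.05. In this comparison 3 of 5 megakaryocyte markers (median 0.85), 4 of 6 stromal and endothelial markers (median 1.16) and 3 of 9 stem cell markers (median 0.54) were higher at such a p. Of all 15825 tested genes 591 were higher at such a p. Other markers were lower, namely 2 of 8 erythroid (median -0.27) and 2 of 7 stem and progenitor markers (median -0.10). So were 1 of 7 T and NK cell and 1 of 5 mast cell and basophil markers, against 3.06% of all genes. The part of these markers in the values of the 8 genes was not tested.

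The interaction compares the effect of the Kdm6b deletion in cells with and without the transgene. Again 0 of the 8 genes were called (0.0126% of all genes), and 0 had an unadjusted p below 0.05, against 6.87%. The value for Dnmt3a was -0.04 ± 0.09 (adjusted p = 0.964), with a 95% interval from -0.24 to 0.16, which is the departure of the double mutant from the sum of both single-mutant differences on the log2 scale. The value nearest the threshold was that of Idh2 (-0.22 ± 0.12, adjusted p = 0.752). Idh2 passed an unadjusted p of 0.05 without the second Kdm6bΔ/+ mouse (-0.31) and Tet3 without the third Asxl1Y588XTg mouse (0.30 from 0.20).

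All 40 intervals of 95% for the 8 genes in the 5 pair comparisons lay inside a 1.5-fold difference in either direction, with bounds from -0.50 to 0.44 on the log2 scale. The share of such intervals over all tested genes was not computed. Of the 40, 6 excluded 0, namely the differences with an unadjusted p below 0.05. Such a p was found for 3.49% to 15.4% of all genes, depending on the pair. These intervals are per gene, carry no correction for their number and are not independent, since the pairs reuse the same libraries.

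**Figure D3:**
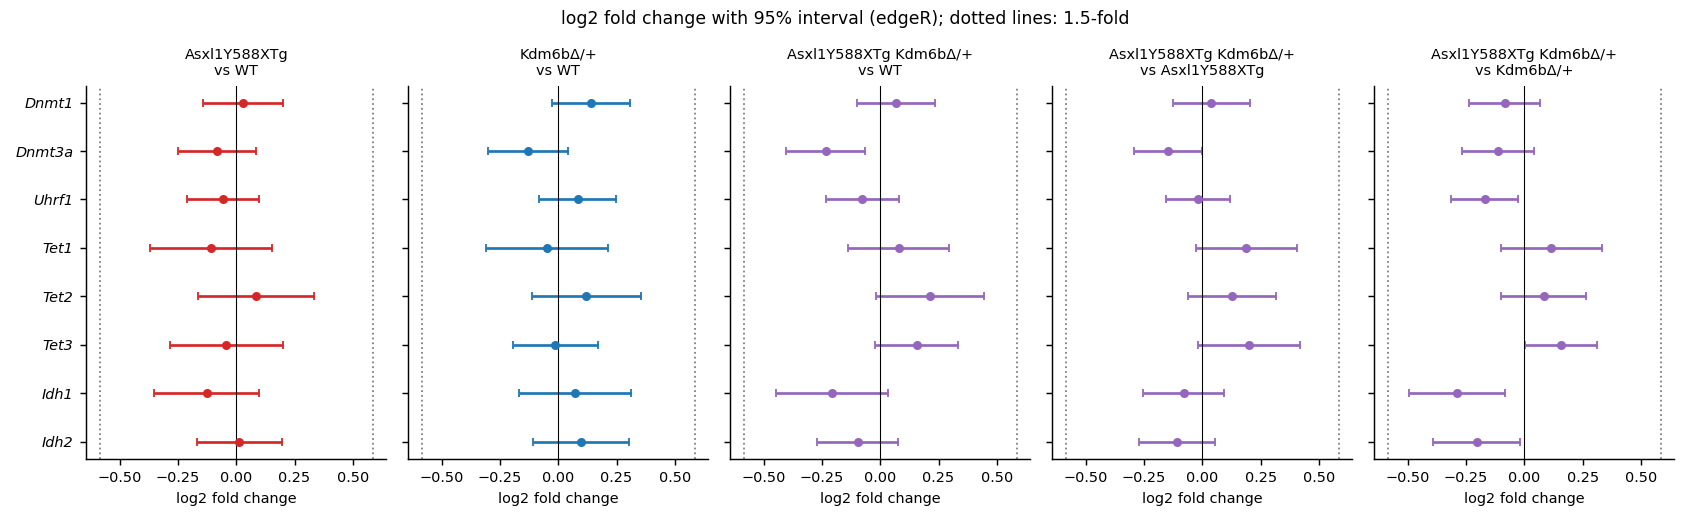
log2 fold change (horizontal axis) of the 8 genes in the 5 pair comparisons, with points for the edgeR estimate and bars for its 95% interval, and dotted lines at a fold of 1.5. Every bar stays between the dotted lines, and the lowest point is Idh1 at -0.29 in the double mutant against Kdm6bΔ/+.

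Genes that work with the 8 were followed through 5 lists. The list of methylation writers and maintenance factors holds 13 genes, 3 of the 8 among them, and 0 were called in any comparison. In the double mutant against WT, 4 of the 13 had an unadjusted p below 0.05, all of them lower, against 3.06% of all genes lower. They were Dnmt3a, Dnmt3b (normalized count 384 in the double mutant and 480.1 in WT, log2 fold change -0.31 ± 0.12, adjusted p = 0.659), Uhrf2, the paralog of Uhrf1 (1140 and 1419, -0.30 ± 0.10, adjusted p = 0.560), and Cdca7, a partner of the remodeler HELLS (3283 and 3703, -0.16 ± 0.07, adjusted p = 0.716). The median of the list was -0.08. Of the 28 DNA replication genes in this comparison, 0 had such a p in the lower direction and 1 in the higher, with a median of -0.07.

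In the double mutant against Kdm6bΔ/+, 3 of the 13 writers had a lower value at an unadjusted p below 0.05, against 5.67% of all genes, namely Uhrf1, Dnmt3b (-0.25 ± 0.11, adjusted p = 0.370) and Cdca7 (-0.23 ± 0.07, adjusted p = 0.231). Here 9 of the 28 DNA replication genes were lower too, with a median of -0.15, and the part of proliferation in these values was not tested. Against Asxl1Y588XTg, 2 of the 13 (15.4%) had such a p, Dnmt3a and Uhrf2 (-0.21 ± 0.07, adjusted p = 0.191), both lower, against 9.81% of all genes lower and 15.4% in either direction, a share near the background. In both single mutants against WT 0 of the 13 had such a p.

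The list of genes for oxidation and removal of methylcytosine holds 16 genes, of which 15 were tested and 0 were called. Cxxc5, a CpG-binding protein that interacts with TET2, came nearest in Asxl1Y588XTg against WT (523 and 351 normalized counts, log2 fold change 0.58 ± 0.14, adjusted p = 0.0919) and stood at -0.46 ± 0.17 (adjusted p = 0.244) in the double mutant against Asxl1Y588XTg. Apex1, the abasic site endonuclease of base excision repair, had 101 normalized counts in WT and 173 in Kdm6bΔ/+ (0.78 ± 0.26, adjusted p = 0.9999), and its interaction was -1.02 ± 0.32 (adjusted p = 0.461). Exons of Apex1 overlap with those of Pip4p1 on the other strand, so its counts are uncertain. Gadd45g had the lowest p of the list in the double mutant against WT (0.39 ± 0.16, adjusted p = 0.705).

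Of 11 readers of methylated DNA, 0 were called. Zbtb4, a zinc finger repressor that binds methylated CpG, had 208 normalized counts in Asxl1Y588XTg and 102 in WT (log2 fold change 1.02 ± 0.22, adjusted p = 0.0528), just outside the threshold. It also had the lowest p of its list in the double mutant against Kdm6bΔ/+ (0.67 ± 0.22, adjusted p = 0.265) and against WT (0.62 ± 0.22, adjusted p = 0.615). Mbd2, a methyl-CpG binding protein, stood at 0.19 ± 0.06 (adjusted p = 0.181) in the double mutant against Asxl1Y588XTg.

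In the list for 2-oxoglutarate metabolism, with 19 genes, 0 were called and the medians ran from -0.10 in Asxl1Y588XTg against WT to 0.03 in the double mutant against Asxl1Y588XTg. Idh1 had the lowest p of this list in the double mutant against Kdm6bΔ/+, where Idh1 and Idh2 were the 2 of 19 genes (10.5%) with an unadjusted p below 0.05, against 12.2% of all genes. In the list for S-adenosylmethionine and the folate cycle, which supply the methyl group, 0 of 16 were called, and 4 were lower at an unadjusted p below 0.05 in the double mutant against Kdm6bΔ/+, against 5.67% of all genes lower, with Mthfd2 at -0.23 ± 0.08 (adjusted p = 0.285).

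**Figure D4:**
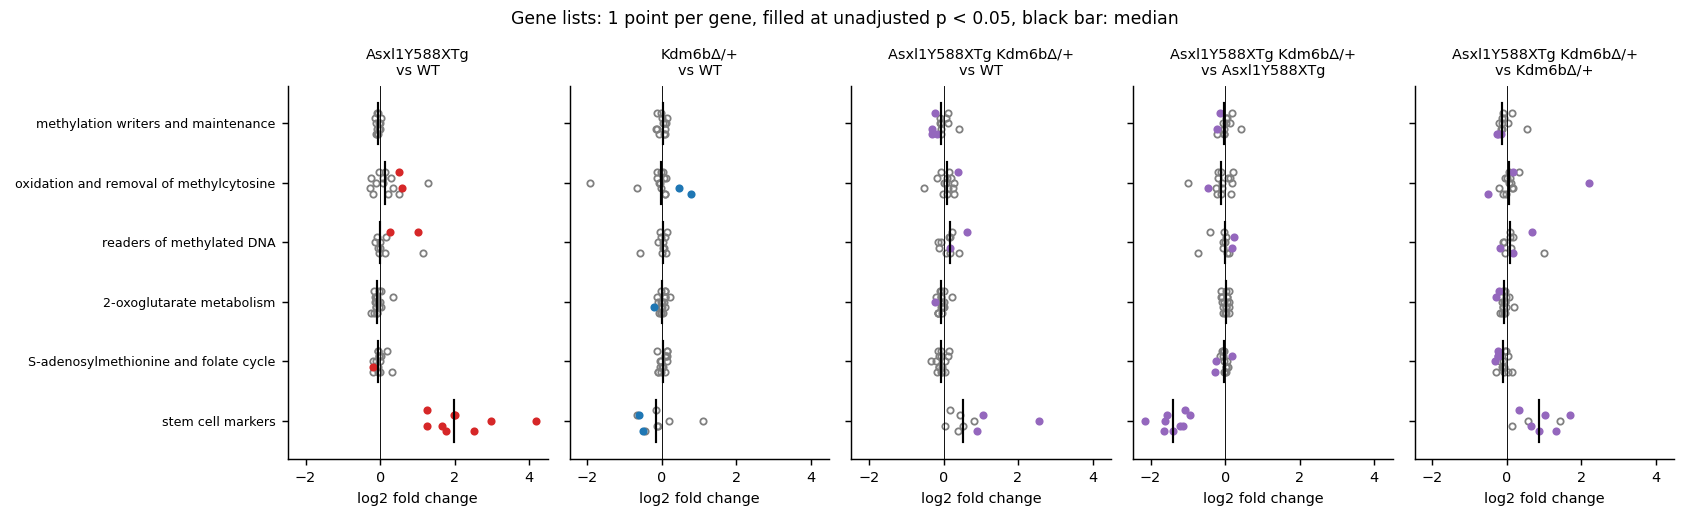
log2 fold change (horizontal axis) of each gene of 5 lists around the 8 genes and of the stem cell markers in the 5 pair comparisons, filled where the unadjusted p is below 0.05, with a black bar at the median of the list. The medians of the 5 lists lie between -0.13 and 0.16, with single genes farther out, while the stem cell markers have medians of 1.99 in Asxl1Y588XTg against WT and -1.39 in the double mutant against Asxl1Y588XTg.

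DNMT1 and UHRF1 act at replication, so each gene was set against the mean log2 CPM of 28 DNA replication genes over the 12 libraries, 8 relations in all. Uhrf1 gave Pearson's r = 0.80 (permutation test, p = 0.00132, Benjamini-Hochberg adjusted p = 0.0106) and Spearman's rho = 0.73 (permutation p = 0.0097, adjusted p = 0.0776). The permutation moved libraries freely across genotypes, so its p does not take the grouping by genotype into account. The score was 6.91 to 6.96 in Kdm6bΔ/+ and 6.74 to 6.81 in Asxl1Y588XTg. Without the first and second Kdm6bΔ/+ mice, which lay farthest from the median of the score, r of Uhrf1 was 0.63. With each genotype centred on its own mean it was 0.43, and this r was not tested. Leaving out the first Kdm6bΔ/+ mouse alone moved the adjusted p for Uhrf1 to 0.0815, past the threshold. How many of all tested genes have an r this high with the score was not computed. Dnmt1, whose window above also holds E2F words, gave r = 0.46 (permutation p = 0.128, adjusted p = 0.377). The adjusted p of the other genes ran from 0.377 to 0.710, with Tet2 at r = -0.41. With each genotype centred on its own mean, r was -0.72 for Tet2, -0.17 for Tet3, -0.20 for Tet1 and 0.10 for Dnmt1. Without the first Asxl1Y588XTg mouse, r went from -0.12 to -0.59 for Tet1 and from -0.19 to -0.61 for Tet3 (permutation test, adjusted p = 0.149 for both).

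**Figure D5:**
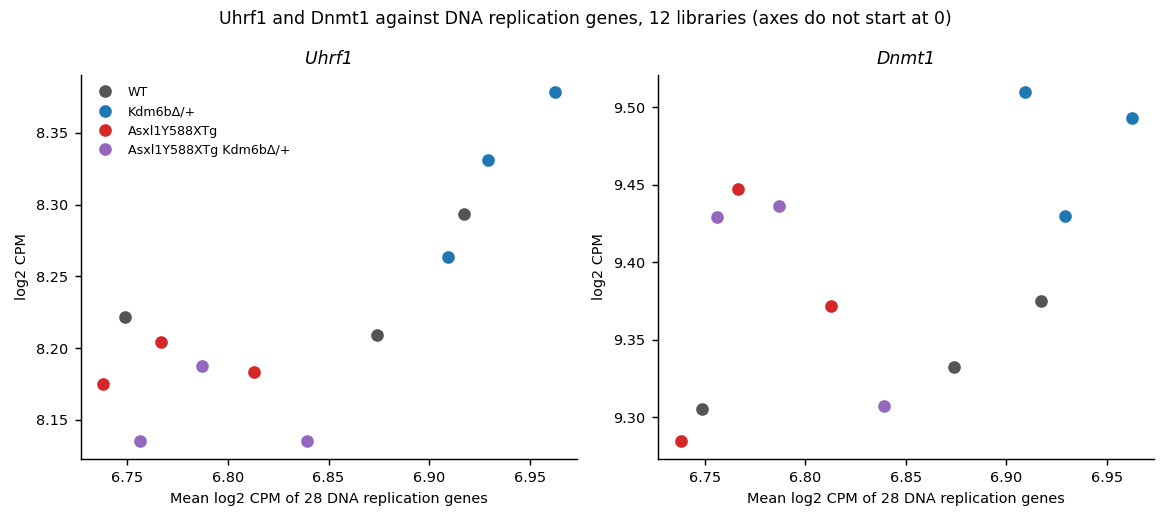
log2 CPM of Uhrf1 and of Dnmt1 (vertical axes) against the mean log2 CPM of 28 DNA replication genes (horizontal axis), with 1 point per library coloured by genotype; no axis starts at 0. Uhrf1 is higher where the score is higher (r = 0.80), with the Kdm6bΔ/+ libraries at the upper right, and Dnmt1 is more scattered (r = 0.46).

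For each of the 8 genes the most similar profiles over the 12 libraries were sought among 9890 other tested genes whose counts averaged 100 or more, by Pearson's r of log2 CPM. These are descriptions, since the libraries share depth and genotype. Each r is also picked from the highest of 9890 over only 12 libraries, and how high such a maximum would be by chance was not tested. Cdca7 was the nearest to Uhrf1 (r = 0.94), then Nme7 and Pop7 (both above 0.90). Dnaja1 (0.90), G3bp1 (0.88) and Polr3k (0.87) were nearest to Dnmt3a. Nearest to Dnmt1 were Dmkn (0.92), Pik3c3 (0.90) and Arl6ip4 (0.88).

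Tet1 was nearest to Cenpf (0.89), Atrx (0.89) and Ccdc57 (0.88), and Tet2 to Tln1 (0.92), Chd7 (0.91) and Mycbp2 (0.91). For Tet3 the nearest were Arfgef2 (0.88), Tnrc6c (0.87) and Kmt2c (0.86). Idh1 was nearest to Rab32 (0.95), Entpd7 (0.93) and Tspan5 (0.93). Idh2 was nearest to Calr (0.96), Rpn1 (0.93) and Pdia3 (0.92). Among the 8 genes themselves, the pairs with the highest r were Tet2 with Tet3 (0.62, and 0.59 with genotype means removed) and Dnmt1 with Idh2 (0.62 and 0.72). Dnmt3a with Tet2 had the lowest r (-0.50), which was -0.01 with genotype means removed.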

How the data were processed

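The authors deposited a matrix of raw read counts per gene for 12 libraries of single-end reads of 50 bases. By the submitters' processing notes FastQC, Trimmomatic, STAR and HTSeq were used with mm10, and the annotation and strand setting are not given in the sources used here. The labels and the methods name different kits and sequencers.

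The 8 genes and all gene lists were chosen with earlier results of these data known. Counts were tested per pair of genotypes with edgeR 4.0.16 (quasi-likelihood, robust, TMM) on the 15825 genes kept by filterByExpr, with Benjamini-Hochberg adjustment over all of them. A gene was called at an adjusted p below 0.05 and a fold above 1.5. The interaction used all 12 libraries. SE and 95% intervals follow from the F statistic. Values of log2 CPM used a prior count of 2. Genes named beside the 8 were Kdm6b, the lowest p of each list and comparison, and the 3 most similar profiles, besides Dnmt3b, Dnmt3l, Uhrf2, A630089N07Rik and Gm11960, named after their values were seen. Positions and lengths are from GENCODE vM21. The fit was tested on simulated data. Replicates of a genotype are separate mice and differed by more than sampling noise. DESeq2 1.42.0 and other settings served as alternatives. One list gene that the naming rule selects is not reported here.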

Additional observations from a re-analysis of the deposited data

How the results depend on the processing

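None of the 8 genes was called in any of the 5 pair comparisons or in the interaction under DESeq2, a joint fit of all genotypes, RLE size factors, no filter on low counts, a minimum average count of 50, the replicate block, a term for Y-linked transcripts or with any library left out, so that the count was 0 throughout, leave-one-out fits included. Over these settings 664 log2 fold changes were recomputed and moved by at most 0.116, and 23 changed sign, each of them at most 0.07 from 0 in the reported fit. The lowest adjusted p in edgeR was 0.0470, without the filter, for 1 of the 8 genes in the double mutant against Kdm6bΔ/+. Its fold was below 1.5, so it was not called. With the replicate block the count stayed at 0, and Dnmt3a in the double mutant against WT was -0.23 (adjusted p = 0.578). After removal of genotype means, libraries with the same number correlated at a median of -0.04 (-0.12 to 0.08). Those with different numbers correlated at 0.008 (-0.14 to 0.18). These values show no pairing of mice by number and cannot exclude one. With the term for Y-linked transcripts Dnmt3a in the double mutant against WT was -0.29 (adjusted p = 0.980). Over all genes the count called was 255 in Asxl1Y588XTg against WT, from 101 with the block to 619 without the filter (473 in DESeq2), and 275 in the double mutant against Asxl1Y588XTg, from 48 with the Y-linked term to 812 without the filter (446). The counts and ranges were 15 and 6 to 53 (39 in DESeq2) in Kdm6bΔ/+ against WT, 15 and 2 to 211 (104) in the double mutant against Kdm6bΔ/+, 34 and 3 to 182 (114) against WT and 2 and 0 to 258 (66) for the interaction. Of the 8 genes, 1 had an adjusted p below 0.05 against the DNA replication genes, and between 0 and 1 with single libraries left out, the 0 arising without the first Kdm6bΔ/+ mouse. The share of all tested genes with such a relation was not computed. Dnmt3a and Uhrf1 were the 2 genes with an unadjusted exact p below 0.05 under each scaling tried. The Dnmt3a share was the 1 share past that test with either length. Library scaling cancels in a share, and a change of length rescales the ratio of Dnmt3a to Dnmt1 alike in all libraries. These settings are therefore no check of the Dnmt3a share. Dnmt3a in the double mutant against Asxl1Y588XTg ran from -0.18 to -0.10 with a library left out, and its unadjusted p stayed below 0.05 only without the first Asxl1Y588XTg mouse, with 1 joint fit of the genotypes and with the Y-linked term. With 3 mice per genotype, the SE of a pair difference of the 8 genes was 0.0627 to 0.120 in log2 units.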
